A study of Mus musculus with 28 samples.

Results

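Induced hepatocyte-like (iHep) cells made with the transcription factors Foxa2 and Hnf4a were compared with the embryonic fibroblasts they were derived from. The members are whole libraries, chosen by their titles: 4 of Foxa2 iHep cells (iHep_Foxa2) and 2 of fibroblasts (MEF), 6 of the 28 libraries in the series. Per the labels, the iHep_Foxa2 cells were C57BL/6 mouse embryonic fibroblasts, also of embryos 13.5 days post coitum, infected with retroviruses carrying Foxa2 and Hnf4alpha cDNAs and then kept to a stage named iHep. The MEF cells were C57BL/6 fibroblasts from embryos 13.5 days post coitum, with no infection named. Cells made with Foxa1 and Hnf4alpha (iHep_Foxa1, 6 libraries) or Foxa3 and Hnf4alpha (iHep_Foxa3, 6 libraries) and adult hepatocytes from mice 10 weeks old (Hep, 2 libraries) are used only for reference. The labels do not say whether the 4 iHep_Foxa2 libraries came from separate infections, clones or passages, nor how long the cells had been cultured. The p-values below rest on the spread within groups, estimated over all 28 libraries in 9 groups, and this spread may be technical. The 28 libraries include no infection control without Foxa cDNA, so infection, selection in culture and the factors cannot be told apart.

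Foxa proteins are forkhead factors that open chromatin at liver enhancers during foregut development. Hnf4a is a nuclear receptor that hepatocytes need for their plasma protein, lipid and drug metabolism genes. Given together, these factors are known to turn fibroblasts into epithelial cells with some hepatocyte traits. Such a conversion involves loss of the mesenchymal programme (collagens, contractile proteins, Twist and Zeb factors), gain of epithelial junctions, and gain of liver genes.

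Levels are CPM, the usual read counts scaled by library size, here with TMM factors. A gene was called when its edgeR adjusted p was under 0.05 over all 16499 genes tested, and called consistent when, in addition, all 4 iHep_Foxa2 libraries lay above both MEF libraries, or all 4 below both. Of the genes tested, 5068 (30.7%) were called, 2518 (15.3%) higher and 2550 (15.5%) lower in iHep_Foxa2. Of these, 4921 (29.8% of the genes tested) were consistent, 2428 (14.7%) higher and 2493 (15.1%) lower, while 147 (0.891%) were called with libraries that overlapped. At least a 2-fold difference in every pair of libraries was met by 1174 genes (7.12%) that rose and 1437 (8.71%) that fell. The groups did not overlap for 8888 genes (53.9%) whatever their p, so the separation of the groups by itself selects little. Without MEF replicate 1 the numbers of consistent genes were 1268 higher and 1909 lower, and without MEF replicate 2 they were 1157 and 1748. The shares of all genes, 15.3% higher and 15.5% lower, and their median log2 fold change of 0.06 are the background for each gene list below. In the list counts, rose and fell mean called higher or called lower, including genes whose libraries overlapped.

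**Figure D1:**
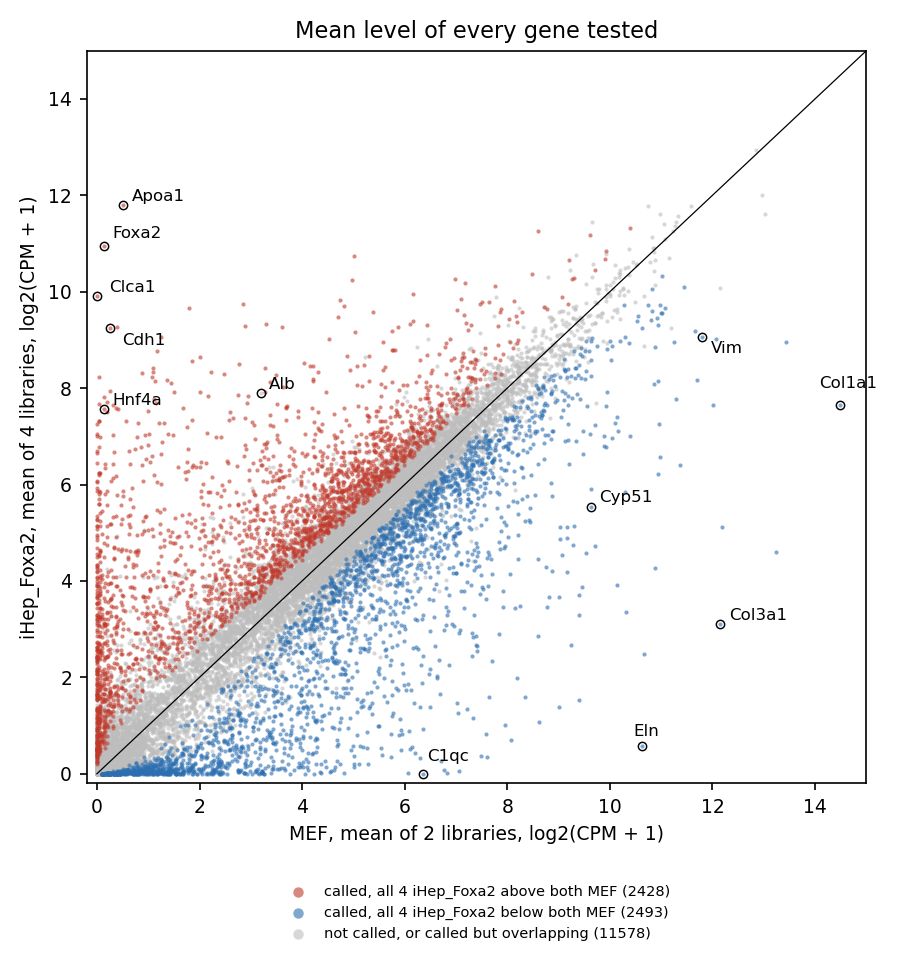
Each point is 1 of the 16499 genes tested, with its mean level in the 4 iHep_Foxa2 libraries on the vertical axis and in the 2 MEF libraries on the horizontal axis, both as log2(CPM + 1). Red marks the 2428 consistent genes that rose, blue the 2493 that fell, and grey the rest, with Alb above the diagonal but not called.

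The 4 iHep_Foxa2 libraries held 25354288, 30983889, 30344249 and 25613832 assigned reads, and the MEF libraries 22178268 and 22039143. Across genes, log2(CPM + 1) correlated with r from 0.962 to 0.972 among iHep_Foxa2 libraries, 0.834 to 0.884 between iHep_Foxa2 and MEF, and 0.983 between the MEF libraries, where genes are not independent points. The series falls into 2 library sets that differ in the small nuclear RNA Rn7sk, and all 6 libraries compared here are in the low set, with 0 to 2.16 CPM in iHep_Foxa2 and 0.862 and 1.81 CPM in MEF. The labels were checked against marker lists. Summed hepatocyte markers (7 genes) stood at 2139 to 6765 CPM in iHep_Foxa2 and 12.6 and 16.3 CPM in MEF, with Ttr under 1 CPM in all 4 iHep_Foxa2 libraries. Most of the iHep_Foxa2 sum was Apoa1, at 1827 to 6319 CPM, while Alb, Ttr, Cyp2e1 and Cps1 were not called. Summed epithelial markers (5 genes) stood at 590 to 2378 CPM in iHep_Foxa2 and 1.71 to 2.68 CPM in MEF, and summed fibroblast markers (7 genes) at 383 to 1314 CPM in iHep_Foxa2 and 39350 to 43000 CPM in MEF. Leukocyte and Kupffer cell markers (7 genes) summed to at most 0.157 CPM in iHep_Foxa2, with C1qa, C1qb, C1qc and Tyrobp at 0, and to 19.3 CPM in MEF replicate 1 and 251 CPM in MEF replicate 2. The MEF libraries therefore held macrophage transcripts, unequally, and their part in the results was not tested.

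The introduced factors were present as the labels state. Foxa2 stood at 3281, 2364, 988 and 1248 CPM in iHep_Foxa2 libraries 1 to 4, against 0.144 and 0.0476 CPM in MEF (adjusted p = 3.83e-06). Hnf4a stood at 258, 316, 151 and 33.3 CPM in iHep_Foxa2 libraries 1 to 4, against 0 and 0.190 CPM in MEF (adjusted p = 6.16e-07), and was lowest in library 4. Both factors were higher in all 4 libraries, and both calls held without any 1 library (adjusted p at most 0.000584 for Foxa2 and 9.29e-05 for Hnf4a). Reads of the delivered cDNA and of the cells' own gene cannot be told apart in these counts. Foxa1, at 0.0365, 0.129, 0.535 and 1.43 CPM in iHep_Foxa2 libraries 1 to 4, against 0.718 and 0.333 CPM in MEF, and Foxa3, at 0.219, 0.161, 0.0315 and 0 CPM in iHep_Foxa2 libraries 1 to 4, against 0.192 and 0.238 CPM in MEF, were not called. In Hep, Foxa1 averaged 37.9 CPM, Foxa3 157 CPM and Foxa2 104 CPM. Hnf4a averaged 189 CPM in iHep_Foxa2 and 1006 CPM in Hep.

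Genes for secreted liver proteins rose in part. Of 26 plasma protein genes, 12 rose and 3 fell (median log2 fold change 4.07). Without iHep_Foxa2 replicate 1, 9 rose and 2 fell, while 13 rose without replicate 2, 3 or 4. Fewer rose without either MEF library. Apoa1, which forms high-density lipoprotein particles, stood at 3535, 6319, 2570 and 1827 CPM in iHep_Foxa2 libraries 1 to 4, against 0.383 and 0.476 CPM in MEF. Its log2 fold change was 13.01 ± 1.23 (adjusted p = 1.32e-07), and its mean in Hep was 6413 CPM. Ceruloplasmin (Cp), the copper-carrying ferroxidase of plasma, stood at 854, 1028, 359 and 986 CPM in iHep_Foxa2 libraries 1 to 4, against 1.53 and 3.38 CPM in MEF (adjusted p = 4.48e-07). The iron carrier transferrin (Trf) stood at 138, 424, 117 and 292 CPM in iHep_Foxa2 libraries 1 to 4, against 2.25 and 3.85 CPM in MEF, a log2 fold change of 6.31 ± 0.95. All 4 libraries lay far above MEF for these genes, within a few fold of each other.

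Fetuin-A (Ahsg), a mineral-binding plasma protein, rose in every library but unevenly, with 1009, 536, 71.6 and 129.5 CPM in iHep_Foxa2 libraries 1 to 4 and 1.25 and 1.28 CPM in MEF (adjusted p = 0.0012). Its levels were high in libraries 1 and 2 and low in 3 and 4. The retinol carrier Rbp4 was even, with 19.1, 16.5, 14.4 and 13.6 CPM in iHep_Foxa2 libraries 1 to 4, against 1.20 and 0.809 CPM in MEF, and its log2 fold change was 3.98 ± 0.49. Kininogen (Kng1), the precursor of bradykinin, and the fibrinogen beta chain (Fgb) were among 8 of 29 clotting and complement genes that rose, with 1 that fell. Kng1 stood at 638, 350.1, 242 and 144 CPM in iHep_Foxa2 libraries 1 to 4, against 0.958 and 1.28 CPM in MEF (log2 fold change 8.25 ± 1.46). Fgb stood at 119, 126, 14.5 and 162 CPM in iHep_Foxa2 libraries 1 to 4, against 0.527 and 0.809 CPM in MEF (log2 fold change 7.29 ± 1.19), lowest in library 3. The complement component C3 rose to 376, 528, 253 and 440.5 CPM, against 2.30 and 3.76 CPM in MEF (adjusted p = 0.00349), a call that ended without MEF replicate 1 (adjusted p = 0.0551). Without MEF replicate 1 or 2 the clotting and complement list held 4 and 5 genes that rose, and none fell without MEF replicate 1.

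Albumin, the most abundant hepatocyte product, did not follow. Alb stood at 914, 18.6, 14.6 and 3.04 CPM in iHep_Foxa2 libraries 1 to 4, against 7.80 and 8.52 CPM in MEF. Library 1 was far above MEF, libraries 2 and 3 were about 2 times MEF, and library 4 was below it. The groups overlapped, and the gene was not called (adjusted p = 0.0623). In Hep, Alb averaged 140000 CPM. Transthyretin (Ttr), the thyroxine carrier, was at 0.219, 0.0644, 0 and 0 CPM in iHep_Foxa2 libraries 1 to 4, against 0.287 and 0.476 CPM in MEF (adjusted p = 0.457), and the fetal albumin relative Afp at 6.79, 0.258, 0.504 and 0.678 CPM in iHep_Foxa2 libraries 1 to 4, against 0 and 0.0476 CPM in MEF (adjusted p = 0.0798). The protease inhibitor Serpina1a rose to 72, 3.03, 2.99 and 15.2 CPM in iHep_Foxa2, against 0.718 and 0.761 CPM in MEF (adjusted p = 0.0171). It was highest in library 1, its call ended without iHep_Foxa2 replicate 1 (adjusted p = 0.0607), MEF replicate 1 (0.133) or MEF replicate 2 (0.132), and its reads may be split with its near-identical copies. Apoe, carried by remnant lipoproteins and also made by macrophages, stood at 1035, 161, 415 and 93.4 CPM in iHep_Foxa2 libraries 1 to 4, against 66.1 and 291 CPM in MEF and was not called (adjusted p = 0.26). Of 23 apolipoprotein and lipid transport genes 5 rose and 4 fell, and without MEF replicate 1 or 2 there were 3 that rose.

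**Figure D2:**
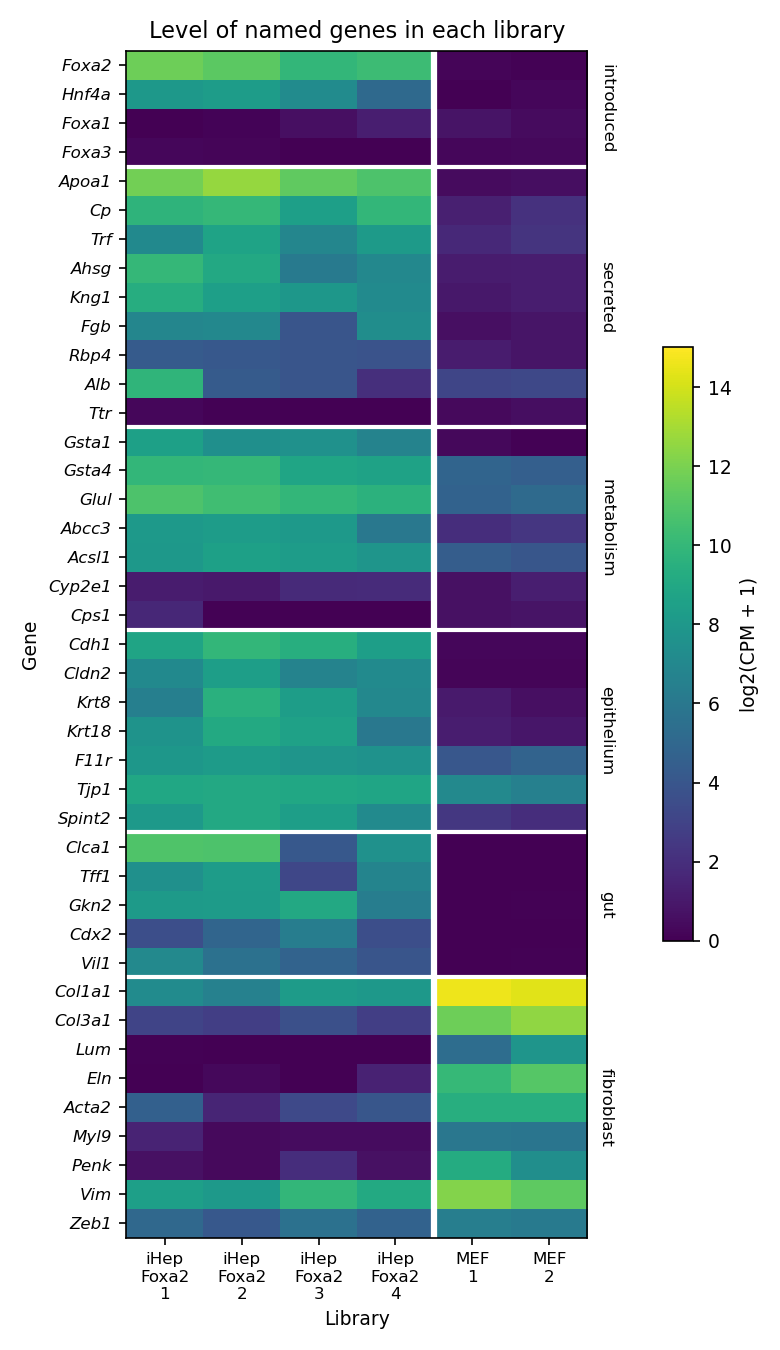
Rows are named genes in blocks (introduced factors, secreted proteins, metabolism, epithelium, gut, fibroblast) and columns the 4 iHep_Foxa2 libraries left of the 2 MEF libraries, with log2(CPM + 1) as colour. Apoa1 and Cdh1 are high in all 4 iHep_Foxa2 columns, Alb in the first, and Ttr in none.

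Among metabolic genes, several detoxifying enzymes rose in all 4 libraries. Of 26 genes of xenobiotic metabolism 10 rose and 1 fell, or 5 and 1 without either MEF library, and 2 fell without iHep_Foxa2 replicate 1. The glutathione transferase Gsta4, which clears lipid peroxidation products, stood at 982, 1013, 453 and 404 CPM in iHep_Foxa2 libraries 1 to 4, against 27 and 22.7 CPM in MEF, a log2 fold change of 4.84 ± 0.45. Gsta1, whose reads may be shared with its near copy Gsta2, stood at 362, 179.5, 188 and 102 CPM in iHep_Foxa2 libraries 1 to 4, against 0.239 and 0.0476 CPM in MEF (adjusted p = 5.44e-09). Both were higher in all 4 libraries than in Hep, where Gsta4 averaged 205 CPM and Gsta1 7.89 CPM. The ethanol-metabolising cytochrome Cyp2e1 was at 1.24, 1.03, 2.46 and 2.61 CPM in iHep_Foxa2 libraries 1 to 4, against 0.622 and 1.43 CPM in MEF and was not called (adjusted p = 0.307). Its mean in Hep was 5760 CPM.

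Of 27 genes of amino acid and urea metabolism 4 rose and 5 fell, and 1 rose without either MEF library, while 3 fell without MEF replicate 2. Glutamine synthetase (Glul), which in liver marks the hepatocytes around the central vein, rose to 1766, 1357, 967 and 786 CPM, against 25.5 and 35.1 CPM in MEF (log2 fold change 5.33 ± 0.74). Carbamoyl phosphate synthetase (Cps1), which feeds ammonia into the urea cycle, stood at 2.15, 0.0644, 0.0315 and 0 CPM in iHep_Foxa2 libraries 1 to 4, against 0.575 and 0.761 CPM in MEF (adjusted p = 0.919), and was above 1 CPM in library 1 alone. Of 14 glucose and fructose genes 1 rose and 2 fell, Pck1 of gluconeogenesis and the glucose transporter Slc2a2. The falls numbered 1 without iHep_Foxa2 replicate 2 or 4 or MEF replicate 1, and 0 without MEF replicate 2. Fatty acid oxidation and ketogenesis genes rose in 9 of 15, with 1 that fell, and 5 and 2 rose without MEF replicate 1 or 2. The 1 fall was lost without any library other than iHep_Foxa2 replicate 1. Acsl1, which activates fatty acids with coenzyme A, stood at 258, 372, 310.3 and 221 CPM in iHep_Foxa2 libraries 1 to 4, against 20.1 and 15 CPM in MEF (log2 fold change 4.05 ± 0.38). Acadvl, the first enzyme of long-chain beta-oxidation, stood at 143, 150.3, 162 and 127 CPM in iHep_Foxa2 libraries 1 to 4, against 71.1 and 65.6 CPM in MEF (log2 fold change 1.09 ± 0.16). Of 18 bile acid genes 5 rose, among them the exporter Abcc3, at 262, 312, 276 and 64.2 CPM in iHep_Foxa2 libraries 1 to 4, against 2.83 and 4.09 CPM in MEF (log2 fold change 6.04 ± 0.94), and the sterol hydroxylase Cyp27a1, at 48.8, 23.9, 30.8 and 15.1 CPM in iHep_Foxa2 libraries 1 to 4, against 1.29 and 0.999 CPM in MEF (log2 fold change 4.69 ± 0.75).

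The falls among liver genes were mostly falls from traces. Over the 9 lists of liver genes, 202 genes were tested, 61 rose (30.2%), 18 fell (8.91%) and 123 were not called. Of the 18 that fell, 11 averaged under 1 CPM in MEF, and 10 averaged over 100 times their MEF level in Hep. Bhmt, a homocysteine methyltransferase of liver, stood at 0, 0, 0 and 0.107 CPM in iHep_Foxa2 libraries 1 to 4, against 0.479 and 0.856 CPM in MEF (adjusted p = 0.00502), and averaged 10430 CPM in Hep. Pck1 stood at 0.0730, 0, 0.0945 and 0 CPM in iHep_Foxa2 libraries 1 to 4, against 0.479 and 0.904 CPM in MEF (adjusted p = 0.0244), and Slc2a2 at 0 in all 4 iHep_Foxa2 libraries, against 0.0958 and 0.0476 CPM in MEF (adjusted p = 0.0306). The call of Pck1 ended without iHep_Foxa2 replicate 2 or 4 (adjusted p = 0.0581 and 0.055) or MEF replicate 2 (0.176), and that of Slc2a2 without MEF replicate 1 or 2 (0.164 and 0.0654). Of the 202 genes, 84 were under 1 CPM in all 4 iHep_Foxa2 libraries, and 8 averaged at least their Hep level.

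Liver regulators beyond the introduced pair rose in 7 of 24 hepatic transcription factors, with 1 that fell (median log2 fold change 2.01). Gata4, a foregut endoderm factor, stood at 17.7, 14.5, 4.85 and 8.89 CPM in iHep_Foxa2 libraries 1 to 4, against 0.144 and 0.0476 CPM in MEF (adjusted p = 6.50e-05), and its relative Gata6 at 30.9, 35.7, 35.8 and 33 CPM in iHep_Foxa2 libraries 1 to 4, against 2.30 and 6.42 CPM in MEF (adjusted p = 5.55e-05). Nr1i2, the receptor that induces drug-metabolising enzymes, stood at 10.3, 3.67, 10.4 and 1.86 CPM in iHep_Foxa2 libraries 1 to 4, against 0.144 and 0.0951 CPM in MEF, a log2 fold change of 5.73 ± 1.15, higher in libraries 1 and 3 than in 2 and 4. Cebpa, a regulator of hepatocyte and adipocyte genes, stood at 141, 148, 136 and 102 CPM in iHep_Foxa2 libraries 1 to 4, against 21.9 and 56.4 CPM in MEF (adjusted p = 0.00734). Its call ended without MEF replicate 1 (adjusted p = 0.159), without which the list held 3 genes that rose. In Hep, Cebpa averaged 2047 CPM.

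Promoter sequences are shown for secreted genes because forkhead sites near the start are a known feature of liver promoters. Windows of 250 bases before each start (RefSeq, GRCm38.p6, 16089 promoters of 12753 tested genes) were searched on both strands for TGTTTGC, a forkhead word. It was in 3.4% of all promoters, in 4.23% of those of consistent risers and in 3.28% of those of consistent fallers. It was in 9 of 23 plasma protein promoters (39.1%), 6 of 20 apolipoprotein and lipid transport promoters (30.0%), called or not, 3 of 13 bile acid promoters (23.1%) and 3 of 22 of hepatic transcription factors (13.6%). In the other liver lists it was in 2 of 20 amino acid (10.0%), 1 of 17 glucose (5.88%), 1 of 21 clotting and complement (4.76%), 1 of 29 xenobiotic (3.45%) and 0 of 14 fatty acid oxidation promoters, and in 0 of 32 of epithelial junctions and keratins. Outside the liver lists it was also in 2 of 9 gastric and lung (22.2%), 2 of 13 intestinal (15.4%) and 2 of 15 endothelial promoters (13.3%), and in 0 of 27 matrix promoters. The 9 plasma protein promoters with the word include those of Alb and Afp, which were not called, and 3 near-identical Serpina1 copies. Each stretch below has 100 bases, 5′ to 3′ on the gene's strand, with each match in capitals.
Apoa1 (chr9:46228497-46228596, + strand): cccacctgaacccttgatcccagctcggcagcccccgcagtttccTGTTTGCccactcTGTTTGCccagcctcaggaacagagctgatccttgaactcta
Ahsg (chr16:22891891-22891990, + strand): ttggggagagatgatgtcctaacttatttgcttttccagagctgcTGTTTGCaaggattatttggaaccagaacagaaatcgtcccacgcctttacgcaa
Serpina1a (chr12:103863620-103863719, - strand): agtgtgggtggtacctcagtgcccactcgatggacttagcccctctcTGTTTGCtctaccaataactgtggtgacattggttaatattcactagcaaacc
Gkn2 (chr6:87373115-87373214, + strand): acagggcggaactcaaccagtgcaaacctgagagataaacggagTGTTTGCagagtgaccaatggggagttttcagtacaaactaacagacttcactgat
Alb (chr5:90460697-90460796, + strand): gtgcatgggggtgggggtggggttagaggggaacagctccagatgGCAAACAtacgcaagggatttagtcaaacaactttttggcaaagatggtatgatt
Apoa1 has 2 matches, the first beginning 88 bases before its start. In Ahsg the match begins 79 bases before, in Serpina1a 53, in Gkn2 206 and in Alb, on the other strand, 128. The 5 show the word in genes that rose and in Alb, which was not called. Of other words, TGTTTAC, the forkhead consensus, was in 2.69% of risers, 2.06% of fallers and 2.29% of all promoters, the Hnf4 word CAAAGTCC in 1.62%, 1.34% and 1.35%, and the sterol word TCACNCCAC in 1.16%, 1.05% and 1.04%. The Grhl word AACCGGTT was in 0.166%, 0.168% and 0.193%, and longer words for Hnf1 and serum response factor were each in 0.0414% of risers, 0% of fallers and 0.00622% and 0.0186% of all, where the share of risers is 1 promoter in each case. A match is a description of the letters and does not show binding.

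Most of the epithelial genes tested rose. Of 31 genes of epithelial junctions and keratins 24 rose and 1 fell (median log2 fold change 5.95), or 18 and 17 without MEF replicate 1 or 2. E-cadherin (Cdh1), the adhesion protein that defines epithelium, stood at 428, 967, 682 and 340.3 CPM in iHep_Foxa2 libraries 1 to 4, against 0.192 and 0.190 CPM in MEF. Its log2 fold change was 11.60 ± 0.88 (adjusted p = 6.34e-09), and its mean in Hep was 41.6 CPM. The pore-forming claudin Cldn2 stood at 139, 340.1, 104 and 143 CPM in iHep_Foxa2 libraries 1 to 4, against 0.144 and 0.143 CPM in MEF (log2 fold change 10.27 ± 1.02), highest in library 2. The junctional adhesion protein F11r stood at 246, 298, 222 and 196 CPM in iHep_Foxa2 libraries 1 to 4, against 15.9 and 26.1 CPM in MEF (log2 fold change 3.51 ± 0.24), and the junction scaffold Tjp1 at 498, 521, 483 and 455 CPM in iHep_Foxa2 libraries 1 to 4, against 131 and 92.2 CPM in MEF (log2 fold change 2.13 ± 0.26). These 2 genes already had over 10 CPM in MEF and varied little among the iHep_Foxa2 libraries.

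The keratins of simple epithelium, Krt8 and Krt18, which hepatocytes also make, rose in all 4 libraries. Krt8 stood at 88.5, 744, 320.2 and 125 CPM in iHep_Foxa2 libraries 1 to 4, against 1.15 and 0.523 CPM in MEF (adjusted p = 1.19e-05), and Krt18 at 211, 542, 379.6 and 64.4 CPM in iHep_Foxa2 libraries 1 to 4, against 1.29 and 0.904 CPM in MEF (adjusted p = 1.77e-06). Krt19, a keratin of bile duct and hepatoblasts, rose to 372, 1980, 874 and 391.6 CPM, against 42.6 and 9.18 CPM in MEF (adjusted p = 0.000334). Krt7, of bile duct, rose to 166, 979.9, 153 and 148 CPM, against 9.0 and 2.66 CPM in MEF (adjusted p = 0.00747), a call that ended without MEF replicate 2 (adjusted p = 0.101). The progenitor marker Epcam stood at 9.93, 124, 8.03 and 28.9 CPM in iHep_Foxa2 libraries 1 to 4, against 0.0479 and 0.0951 CPM in MEF (adjusted p = 0.000883). Library 2 was highest for all of these keratins and for Epcam. Cldn6, an embryonic claudin, was at 0.110, 0.226, 0.661 and 30.6 CPM in iHep_Foxa2 and 0 in both MEF libraries, and was not called (adjusted p = 0.0624).

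Of 17 epithelial regulators 13 rose and none fell (median log2 fold change 7.87), or 8 without either MEF library. The protease inhibitor Spint2 stood at 272, 536, 338 and 141 CPM in iHep_Foxa2 libraries 1 to 4, against 4.45 and 2.85 CPM in MEF (log2 fold change 6.46 ± 0.60), and Klf5, a factor of proliferating epithelium, at 66.3, 102, 43 and 53.9 CPM in iHep_Foxa2 libraries 1 to 4, against 5.60 and 4.33 CPM in MEF (log2 fold change 3.74 ± 0.56). Grhl1, a grainyhead factor of epithelial barriers, stood at 8.25, 24.8, 23 and 8.43 CPM in iHep_Foxa2 libraries 1 to 4, against 0.239 and 0.0476 CPM in MEF (adjusted p = 1.36e-05). Esrp2, which directs epithelial splicing, stood at 27.9, 67.8, 43.3 and 16.1 CPM in iHep_Foxa2 libraries 1 to 4, against 2.73 and 1.05 CPM in MEF (adjusted p = 6.60e-06). In the list of fetal liver and duct genes 8 of 19 rose and 3 fell, or 5 and 4 rose without MEF replicate 1 or 2 and 5 without iHep_Foxa2 replicate 2. The duct factor Sox9 stood at 42, 139, 24.2 and 46 CPM in iHep_Foxa2 libraries 1 to 4, against 18.1 and 21.6 CPM in MEF (adjusted p = 0.0202), a call that ended without iHep_Foxa2 replicate 2 (adjusted p = 0.0938) or MEF replicate 1 or 2 (0.166 and 0.109). Spp1, also a duct marker, stood at 3276, 1084, 115.5 and 607 CPM in iHep_Foxa2 libraries 1 to 4, against 969 and 1338 CPM in MEF. It was not called (adjusted p = 0.941). Summed, the 4 duct markers Krt7, Krt19, Sox9 and Spp1 stood at 1167 to 4184 CPM in iHep_Foxa2 and 1038 to 1371 CPM in MEF, so the groups overlapped. The trypsin inhibitor Spink1 stood at 405, 105, 206 and 91.7 CPM in iHep_Foxa2 libraries 1 to 4, against 0.0479 and 0 CPM in MEF (adjusted p = 5.14e-05). The fetal growth factor Igf2 stood at 211, 1158, 591 and 2354 CPM in iHep_Foxa2 libraries 1 to 4, against 5253 and 3806 CPM in MEF and was not called (adjusted p = 0.0799).

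**Figure D3:**
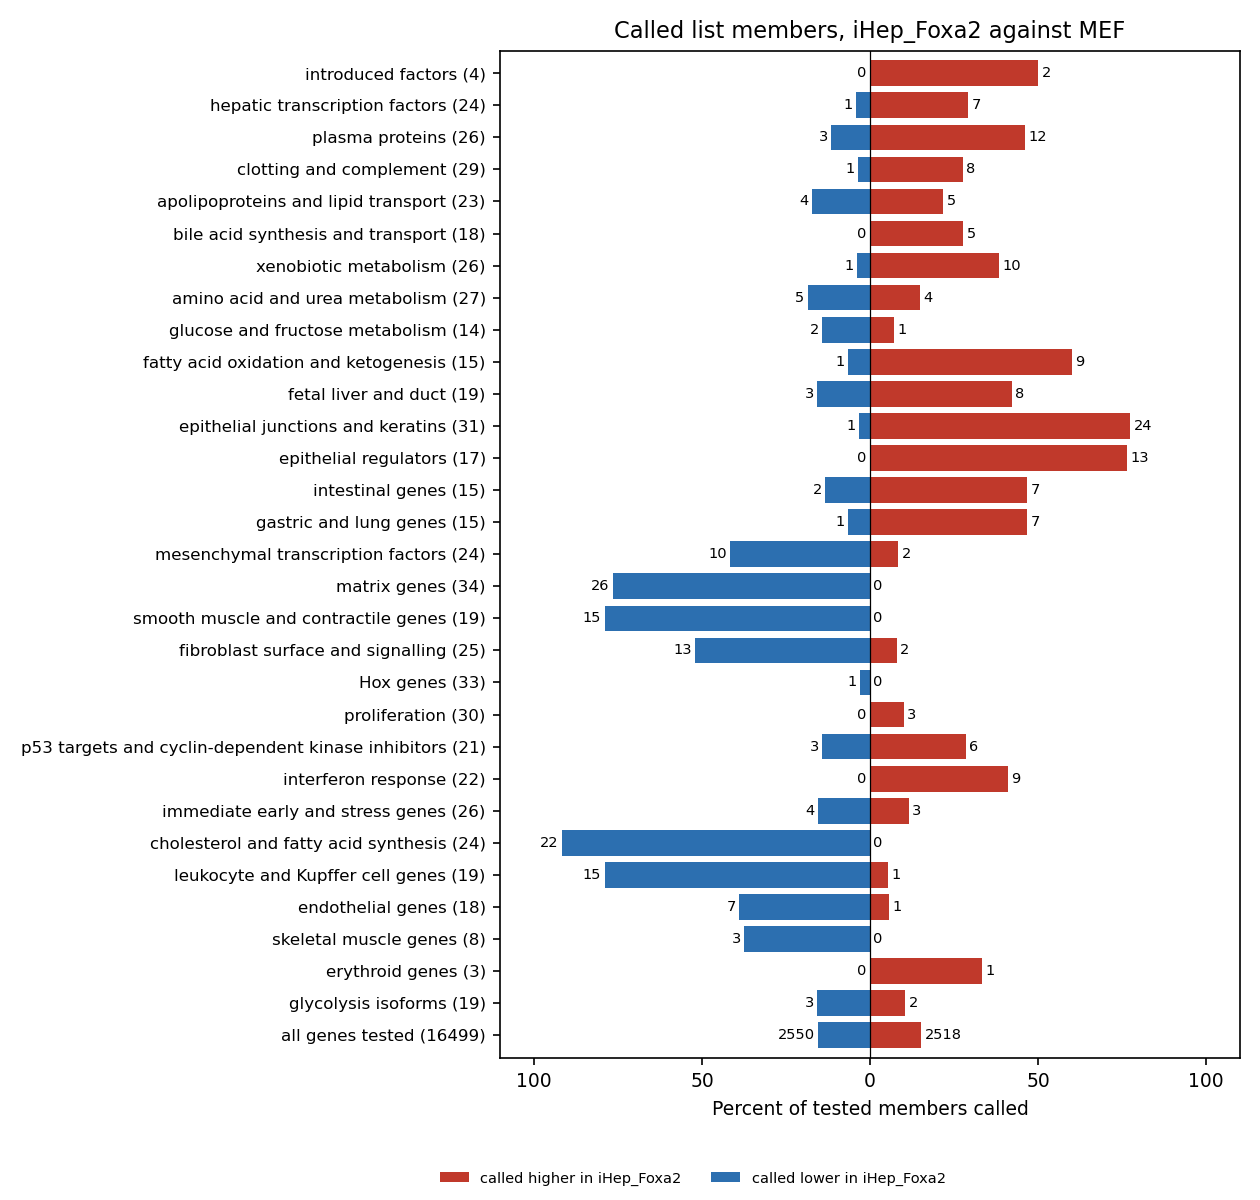
Bars give the percent of tested members of each of the 30 gene lists, and of all 16499 genes tested in the bottom row, that were called higher (right) or lower (left) in iHep_Foxa2, with the count at the bar end and the number tested in brackets. Epithelial lists reach 24 of 31 and 13 of 17 to the right, and matrix, contractile and lipid synthesis lists 26 of 34, 15 of 19 and 22 of 24 to the left, against 2518 and 2550 of 16499.

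Genes of stomach, intestine and lung, organs that share an endodermal origin with liver, were also gained in part. Of 15 intestinal genes 7 rose and 2 fell, with 1 that fell without iHep_Foxa2 replicate 2, 3 or 4. The 2 that fell were Anpep and Heph. Anpep stood at 1.095, 1.095, 0.504 and 1.18 CPM in iHep_Foxa2 libraries 1 to 4, against 17.8 and 27.9 CPM in MEF (adjusted p = 4.28e-07). Fewer intestinal genes rose without either MEF library, and fewer fell without MEF replicate 2. Of 15 gastric and lung genes 7 rose and 1 fell, the last list giving 3 and 1 without either MEF library. Clca1, a protein secreted by goblet cells, stood at 1892, 1760, 16.5 and 189.9 CPM in iHep_Foxa2 libraries 1 to 4 and at 0 in both MEF libraries. Against a floor of 3 counts over the MEF group it was at least 13470-fold higher (adjusted p = 0.00036), high in libraries 1 and 2 and over 10 times lower in 3. The stomach trefoil peptide Tff1 stood at 186, 311, 7.97 and 106 CPM and at 0 in MEF, at least 2134-fold higher (adjusted p = 0.000706), and also lowest in library 3. Bcas1, a gene with high levels in stomach and myelin-forming cells, stood at 187, 235, 33.5 and 66.4 CPM and at 0 in MEF, at least 1823-fold higher (adjusted p = 9.00e-07).

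The stomach protein Gkn2 stood at 291, 301, 530 and 81.6 CPM in iHep_Foxa2 libraries 1 to 4, against 0 and 0.0476 CPM in MEF (adjusted p = 0.000319), highest in library 3. Cdx2, the factor that specifies intestine, was also highest in library 3, with 11, 28.4, 80.4 and 11.4 CPM in iHep_Foxa2 and 0 in MEF, at least 458-fold higher (adjusted p = 0.00012). The brush border protein villin (Vil1) stood at 133, 46.6, 26.6 and 14.7 CPM in iHep_Foxa2 libraries 1 to 4, against 0 and 0.0476 CPM in MEF (adjusted p = 3.84e-05). The intestinal galectin Lgals4 stood at 42.5, 87.4, 286 and 33.4 CPM in iHep_Foxa2 libraries 1 to 4, against 0.431 and 1.57 CPM in MEF (adjusted p = 0.000379). The epidermal keratin Krt6a stood at 13.5, 51.2, 311 and 21.4 CPM and at 0 in MEF, at least 1388-fold higher (adjusted p = 0.00377), most of it in library 3. In Hep, Clca1, Gkn2, Cdx2, Vil1, Bcas1 and Krt6a averaged from 0 to 0.185 CPM, Tff1 1.30 CPM and Lgals4 21.5 CPM. Of the 4 stomach markers, Tff2, Gkn1 and Sox2 were under 1 CPM in all 4 iHep_Foxa2 libraries.

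Lung genes were present in 3 of the 4 libraries. The lung and thyroid factor Nkx2-1 stood at 68.6, 11.4, 0.787 and 55.6 CPM in iHep_Foxa2 libraries 1 to 4, against 0 and 0.285 CPM in MEF (adjusted p = 0.0115). The surfactant protein Sftpa1 stood at 98.6, 9.18, 0.0315 and 8.61 CPM in iHep_Foxa2 and 0 in MEF (adjusted p = 0.0212). Its relative Sftpd stood at 25.3, 43.3, 0.0945 and 4.0 CPM in iHep_Foxa2 and 0 in MEF (adjusted p = 0.0126). Library 3 was under 1 CPM for all of these genes. All 3 calls ended without MEF replicate 1 (adjusted p = 0.118, 0.126 and 0.091 for Nkx2-1, Sftpa1 and Sftpd) or MEF replicate 2 (0.0593, 0.131 and 0.0953). Over all genes, such differences among the iHep_Foxa2 libraries were uncommon. Of 9480 genes averaging at least 10 CPM in iHep_Foxa2, 227 (2.40%) had a highest library over 10 times the lowest, and the median ratio was 1.45. The share was larger among consistent risers averaging at least 10 CPM, with 102 of 1821 above that ratio. Library 2 was highest for 90 of the 227 and library 3 lowest for 123. In MEF, with 2 libraries, the median ratio was 1.16 over 9227 genes, and 10 genes passed 10. In bulk RNA, fewer cells that make a transcript and less of it per cell cannot be told apart.

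**Figure D4:**
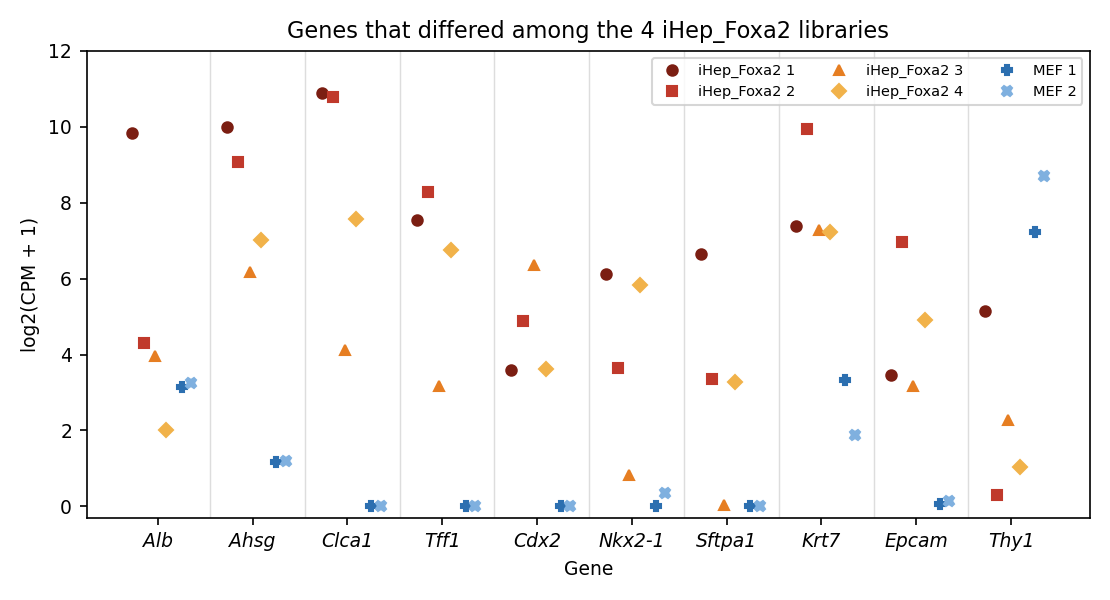
Levels of 10 genes as log2(CPM + 1) in iHep_Foxa2 libraries 1 to 4 (warm colours) left of MEF libraries 1 and 2 (blue). Alb and Sftpa1 are highest in library 1, Krt7 and Epcam in library 2 and Cdx2 in library 3, while Thy1 stays below MEF in all 4.

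The fibroblast programme fell in large part, with 25 of 34 matrix genes called and lower in all 4 libraries than in both MEF libraries. Of 34 matrix genes 26 fell and none rose (median log2 fold change -3.34), with 23 and 20 that fell without MEF replicate 1 or 2. The type I collagen chain Col1a1 stood at 152, 93.5, 300.1 and 259 CPM in iHep_Foxa2 libraries 1 to 4, against 25470 and 20380 CPM in MEF, a log2 fold change of -6.83 ± 0.84 (adjusted p = 2.83e-06). Its partner Col1a2 stood at 46.1, 7.86, 21.2 and 18 CPM in iHep_Foxa2 libraries 1 to 4, against 9201 and 10170 CPM in MEF (log2 fold change -8.70 ± 1.09), and type III collagen (Col3a1) at 7.52, 5.80, 11.5 and 5.75 CPM in iHep_Foxa2 libraries 1 to 4, against 3364 and 5752 CPM in MEF (log2 fold change -9.22 ± 0.93). Col5a1, which nucleates collagen fibrils, stood at 422, 244, 671 and 658 CPM in iHep_Foxa2 libraries 1 to 4, against 11100 and 10970 CPM in MEF (log2 fold change -4.47 ± 0.94). All 4 of these collagen genes stayed above 1 CPM in every iHep_Foxa2 library, while other matrix genes were nearer 0. The proteoglycan lumican (Lum) stood at 0.0730, 0, 0.0315 and 0.0357 CPM in iHep_Foxa2 libraries 1 to 4, against 39.6 and 226 CPM in MEF (adjusted p = 4.49e-10), elastin (Eln) at 0, 0.226, 0.0315 and 1.68 CPM in iHep_Foxa2 libraries 1 to 4, against 1078 and 2076 CPM in MEF (adjusted p = 4.16e-06), and Mfap4, an elastic fibre protein, at 0.0365, 0, 0.0315 and 0 CPM in iHep_Foxa2 libraries 1 to 4, against 42.3 and 181 CPM in MEF (adjusted p = 4.43e-07).

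Of 19 smooth muscle and contractile genes 15 fell and none rose. Smooth muscle actin (Acta2), the mark of myofibroblasts, stood at 22.9, 1.90, 8.85 and 15 CPM in iHep_Foxa2 libraries 1 to 4, against 681 and 664 CPM in MEF, a log2 fold change of -5.79 ± 0.66. The actin-binding Tagln stood at 36.2, 4.74, 6.61 and 8.64 CPM in iHep_Foxa2 libraries 1 to 4, against 1152 and 1117 CPM in MEF (adjusted p = 1.87e-06), the myosin light chain Myl9 at 1.86, 0.290, 0.441 and 0.393 CPM in iHep_Foxa2 libraries 1 to 4, against 61.9 and 55.4 CPM in MEF (adjusted p = 1.35e-07), and calponin (Cnn1) at 0.657, 0.129, 0.220 and 0.357 CPM in iHep_Foxa2 libraries 1 to 4, against 109 and 35.4 CPM in MEF (adjusted p = 2.44e-06). Library 1 was highest among the iHep_Foxa2 libraries for these 4 genes. Of 25 fibroblast surface and signalling genes 13 fell and 2 rose, with 1 that rose without iHep_Foxa2 replicate 2 or 4 or either MEF library. The opioid precursor Penk stood at 0.621, 0.322, 2.90 and 0.571 CPM in iHep_Foxa2 libraries 1 to 4, against 611 and 170.3 CPM in MEF (adjusted p = 3.51e-07), and the growth factor Fgf5 at 0 in all 4 iHep_Foxa2 libraries against 13 and 12.1 CPM in MEF, at least 495-fold lower against a floor of 3 counts over the iHep_Foxa2 group. Vimentin (Vim), the intermediate filament of mesenchyme, fell too, with 359.5, 272, 963 and 552 CPM in iHep_Foxa2 libraries 1 to 4, against 4680 and 2444 CPM in MEF (log2 fold change -2.73 ± 0.45). The surface marker Thy1 stood at 34.2, 0.226, 3.87 and 1.04 CPM in iHep_Foxa2 libraries 1 to 4, against 150 and 413 CPM in MEF (adjusted p = 0.00582), highest in library 1, and its call ended without MEF replicate 2 (adjusted p = 0.0534). The receptor Pdgfra stood at 57.9, 2.80, 12.4 and 33.4 CPM in iHep_Foxa2 libraries 1 to 4, against 95.8 and 154 CPM in MEF and was not called (adjusted p = 0.0582).

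Of 24 mesenchymal transcription factors 10 fell and 2 rose, or 7 and 3 fell without MEF replicate 1 or 2. Meox2 stood at 0.0730, 0, 0.157 and 0.0357 CPM in iHep_Foxa2 libraries 1 to 4, against 8.47 and 12.2 CPM in MEF (adjusted p = 2.38e-05), and Twist2 at 7.19, 1.26, 2.83 and 10.8 CPM in iHep_Foxa2 libraries 1 to 4, against 34.9 and 42.6 CPM in MEF (adjusted p = 0.0114), a call that ended without MEF replicate 2 (adjusted p = 0.0583). Zeb1, a repressor of E-cadherin, fell but was not lost, with 32.4, 16.4, 47.1 and 25.8 CPM in iHep_Foxa2 libraries 1 to 4, against 83.7 and 72.2 CPM in MEF (log2 fold change -1.36 ± 0.29). Runx1, a factor of blood and mesenchyme, rose, with 147, 126, 110.5 and 73.2 CPM in iHep_Foxa2 libraries 1 to 4, against 38.1 and 46.1 CPM in MEF (log2 fold change 1.44 ± 0.22). The Hox genes, which carry a cell's position along the embryo, had few calls: of 33 tested, 1 fell and none rose (median log2 fold change -0.01). Without iHep_Foxa2 replicate 3, 3 fell, and without MEF replicate 2, 1 rose. The limb gene Hoxd13 stood at 12.1, 0.193, 37.8 and 0.893 CPM in iHep_Foxa2 libraries 1 to 4, against 105 and 97.5 CPM in MEF and was not called (adjusted p = 0.0908), with libraries 1 and 3 over 10 times libraries 2 and 4.

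Cholesterol and fatty acid synthesis was the list with the highest share of called members, 22 of 24 that fell and none that rose (median log2 fold change -2.49). The pathway makes cholesterol from acetyl units and is normally switched on by the SREBP factors when sterols are low. The sterol demethylase Cyp51 stood at 37.8, 62.5, 27.1 and 55.1 CPM in iHep_Foxa2 libraries 1 to 4, against 596 and 985 CPM in MEF, a log2 fold change of -4.11 ± 0.55 (adjusted p = 8.14e-06). Lanosterol synthase (Lss) stood at 18, 22, 13.7 and 17.7 CPM in iHep_Foxa2 libraries 1 to 4, against 121 and 204 CPM in MEF (log2 fold change -3.19 ± 0.44), and mevalonate kinase (Mvk) at 8.54, 11.5, 11.2 and 11.5 CPM in iHep_Foxa2 libraries 1 to 4, against 56.2 and 62.4 CPM in MEF (log2 fold change -2.47 ± 0.27). The early enzyme Hmgcs1 stood at 109.9, 216, 168 and 176 CPM in iHep_Foxa2 libraries 1 to 4, against 746 and 1513 CPM in MEF (log2 fold change -2.75 ± 0.49). All 4 iHep_Foxa2 libraries were below both MEF libraries for each of the 22 genes.

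In fatty acid synthesis, the citrate lyase Acly stood at 112, 169, 129.8 and 139 CPM in iHep_Foxa2 libraries 1 to 4, against 420.4 and 527 CPM in MEF (log2 fold change -1.79 ± 0.24), and the desaturase Scd2 at 566, 931, 711 and 815 CPM in iHep_Foxa2 libraries 1 to 4, against 1807 and 2284 CPM in MEF (adjusted p = 0.0202), a call that ended without iHep_Foxa2 replicate 1 (adjusted p = 0.0524) or MEF replicate 2 (0.139). The number of the 24 that fell was 21 to 23 without any 1 iHep_Foxa2 library, 20 without either MEF library, 23 with DESeq2 and 22 with limma on FPKM. In Hep the summed level of the list was 44690 and 29510 CPM, against 1845 to 2733 CPM in iHep_Foxa2 and 7446 and 10890 CPM in MEF.

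**Figure D5:**
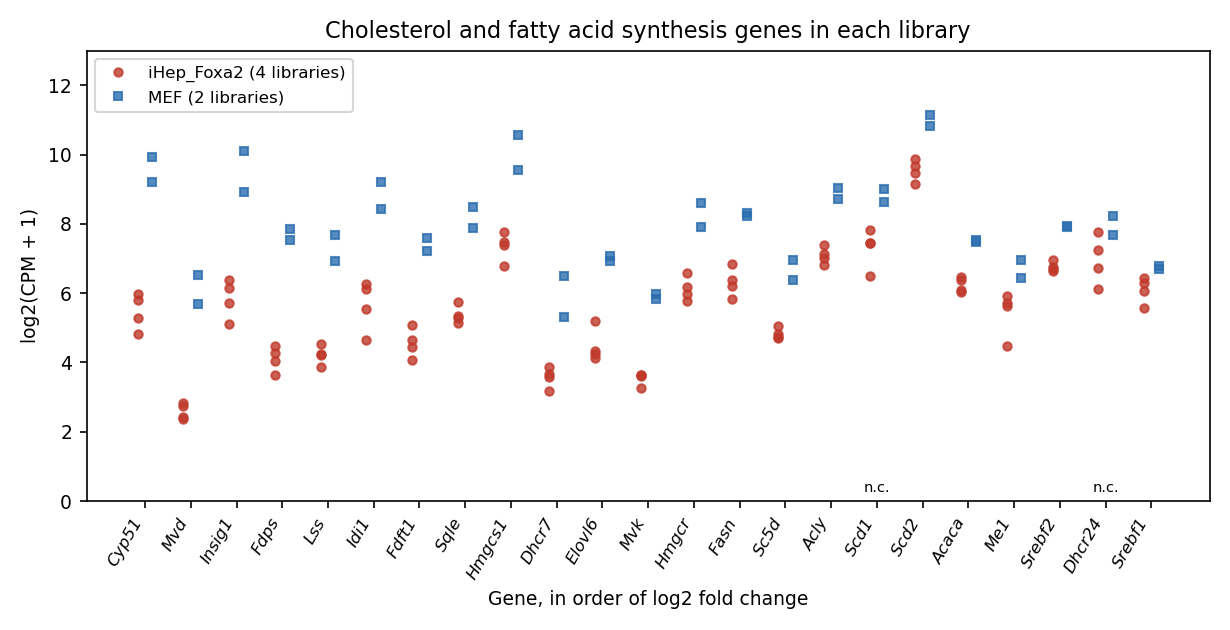
Each of 23 genes of the cholesterol and fatty acid synthesis list has its 4 iHep_Foxa2 libraries (red circles) left of its 2 MEF libraries (blue squares), as log2(CPM + 1), in order of log2 fold change from Cyp51 on the left. The red points lie below the blue ones for each of the 21 called genes drawn, and n.c. marks the 2 genes not called.

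Lists of growth and stress genes moved in part. Of 30 proliferation genes 3 rose and none fell, and 0 to 3 rose without any 1 library. Top2a, a topoisomerase of dividing cells, stood at 94.3, 301, 198 and 366 CPM in iHep_Foxa2 libraries 1 to 4, against 192 and 147 CPM in MEF and was not called (adjusted p = 0.415). Of 21 p53 targets and cyclin-dependent kinase inhibitors 6 rose and 3 fell, and 1 fell without MEF replicate 2. Mdm2, the ubiquitin ligase that degrades p53, stood at 972, 737, 841 and 971 CPM in iHep_Foxa2 libraries 1 to 4, against 241 and 123 CPM in MEF (log2 fold change 2.27 ± 0.48), and the stress gene Trp53inp1 at 1012, 1430, 1115 and 898 CPM in iHep_Foxa2 libraries 1 to 4, against 191 and 244 CPM in MEF (log2 fold change 2.36 ± 0.32). Of 22 interferon response genes 9 rose and none fell, or 3 without MEF replicate 1 and 6 without iHep_Foxa2 replicate 2 or 4. The RNA sensor Oas2 stood at 45.1, 146, 63.4 and 249 CPM in iHep_Foxa2 libraries 1 to 4, against 0.192 and 1.24 CPM in MEF (adjusted p = 0.000325), and the antiviral Mx2 at 9.45, 36.2, 24.4 and 44.7 CPM in iHep_Foxa2 libraries 1 to 4, against 1.82 and 6.14 CPM in MEF (adjusted p = 0.000998). Both were higher in libraries 2 and 4. Summed over the 22 genes, the level was 572.5, 1777, 808 and 3000 CPM in iHep_Foxa2 libraries 1 to 4, against 383 and 1018 CPM in MEF. The sums overlapped, with MEF replicate 2 above iHep_Foxa2 libraries 1 and 3. Of 26 immediate early and stress genes 3 rose and 4 fell, with 6 and 0 that rose without MEF replicate 1 or 2. Of 19 glycolysis genes 2 rose and 3 fell, with 0 and 1 that rose without MEF replicate 1 or 2, 1 that rose without iHep_Foxa2 replicate 1, and 1 that fell without MEF replicate 2.

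Most leukocyte genes tested were lower in iHep_Foxa2. Of 19 leukocyte and Kupffer cell genes 15 fell, 13 of them consistent, and 1 rose, the rise lost without MEF replicate 1. The complement chain C1qc, made by macrophages, stood at 0 in all 4 iHep_Foxa2 libraries, against 10.8 and 152 CPM in MEF, and C1qa and C1qb likewise stood at 0, against 2.35 and 33.2 CPM and 2.15 and 29.2 CPM in MEF. Of the leukocyte genes, 15 passed 1 CPM in at least 1 of the MEF libraries, and each of them was higher in replicate 2, by a median ratio of 12.1, so any fold for them depends on the MEF library. Of 18 endothelial genes 7 fell and 1 rose, among the falls the receptor Kdr, at 0.621, 0.258, 0.157 and 1.43 CPM in iHep_Foxa2 libraries 1 to 4, against 26.9 and 9.42 CPM in MEF (adjusted p = 0.00121), and 4 fell without either MEF library or without iHep_Foxa2 replicate 1 or 3. The 1 endothelial rise was lost without either MEF library. Of 8 skeletal muscle genes 3 fell, with 0 that fell without MEF replicate 1 and 1 without MEF replicate 2 or iHep_Foxa2 replicate 2. Of 3 erythroid genes 1 rose, a call lost without either MEF library or iHep_Foxa2 replicate 1.

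Set against the other iHep cells, iHep_Foxa2 differed from iHep_Foxa1 in 1811 genes (11%), 639 higher (3.87%) and 1172 lower (7.1%) in iHep_Foxa2. Without iHep_Foxa2 replicate 1, 3 or 4 that number was 1083, 543 or 301. It differed from iHep_Foxa3 in 5139 genes (31.1%), 2643 higher (16%) and 2496 lower (15.1%). These comparisons mix library sets, because 3 of the 6 iHep_Foxa1 and 5 of the 6 iHep_Foxa3 libraries are in the high-Rn7sk set. Among low-Rn7sk libraries alone, 279 genes differed from iHep_Foxa3, which has 1 library there, so that this library is assumed to vary like the other groups. Against iHep_Foxa1 in the low set, with iHep_Foxa1 replicates 1 to 3, 4 of 16392 genes were called by edgeR (0.0244%), 1 higher (0.0061%) and 3 lower (0.0183%), and 1696 had an unadjusted p under 0.05. The delivered factors were 2 of them: Foxa2 (log2 fold change 12.27) and Foxa1 (log2 fold change -12.00). The third was Golm1, a Golgi membrane protein, with 135, 109.5, 102 and 136 CPM in iHep_Foxa2 libraries 1 to 4, against 262, 313 and 258 CPM in iHep_Foxa1 replicates 1 to 3 (log2 fold change -1.19, adjusted p = 0.028). The groups did not overlap. The fourth was the nucleotide pyrophosphatase Enpp3, with 1.61, 1.09, 0.283 and 1.89 CPM in iHep_Foxa2, against 25.5, 31.1 and 52.9 CPM in iHep_Foxa1 (log2 fold change -4.90, adjusted p = 0.0171), and it was picked out after its values were seen. Golm1 was also lower than in iHep_Foxa3, over all libraries (log2 fold change -1.14 ± 0.15, adjusted p = 0.000124). Against MEF, Golm1 rose, with 77.8 and 57.6 CPM in MEF (adjusted p = 0.00382), a call that ended without MEF replicate 2 (adjusted p = 0.127).

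For 3 other genes tested against the sister cells, the difference was not called within the low-Rn7sk set. Apoa1 was lower in iHep_Foxa2 than in iHep_Foxa1 (log2 fold change -1.75, adjusted p = 0.0356) and iHep_Foxa3 (-2.18, adjusted p = 0.00507), but its low-set log2 fold change against iHep_Foxa1 was -0.16 (adjusted p = 0.912). Spink1 was lower by log2 fold changes of -4.18 and -4.33 (adjusted p = 0.00914 and 0.00159), with -2.94 in the low set (adjusted p = 0.378). Sftpa1 was higher than in iHep_Foxa1 and iHep_Foxa3, by log2 fold changes of 6.70 and 7.47 (adjusted p = 0.0192 and 0.00364), with 5.78 in the low set (adjusted p = 0.438). With 4 against 3 libraries, a missed call does not show that the cells were alike.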

How the data were processed

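RNA of 28 mouse libraries was sequenced after stranded mRNA library preparation, per the labels. The submitters' processing notes name BWA 0.7.12 and mm9; the quantifier is not given in the sources used here. Per the file headers, each deposited file lists transcripts with their expected count, FPKM and fraction of the reads. Of 30710 transcripts, 30190 took symbols from RefSeq and 181 from GENCODE; 339 stayed unnamed (0.609% to 3.21% of reads). The authors' expected counts were summed per gene and rounded, and 16499 genes passed filterByExpr. edgeR 4.0.16 (R 4.3.3) used TMM and a robust quasi-likelihood F test, 2-sided, with 1 term per group over all 28 libraries (19 residual degrees of freedom) and Benjamini-Hochberg adjustment. Errors after ± are the size of the log2 fold change divided by the square root of its F statistic, an approximate standard error. Zero groups were set to 3 counts for bounds, which cover counting error only. The authors' FPKM entered limma 3.58.1 as log2(FPKM + 1), at least 1 in 2 libraries, and their read fraction was not used. DESeq2 1.42.0 was an alternative. Scripts were tested on simulated data. Replicate numbers name libraries and do not pair them.

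Named genes were the introduced factors, cell type markers, the largest consistent changes and list members with the smallest adjusted p or highest level. Members, gene lists and this rule were chosen with earlier results of these data known. Promoters came from RefSeq (GRCm38.p6); no coordinates of mm9 are given. Some members of the lists are counted but not reported singly here.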

Additional observations from a re-analysis of the deposited data

Results flagged for a closer look

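Among the 4 iHep_Foxa2 libraries, 1 library stood apart for 15 of the named genes that were checked, by Dixon's ratio of the gap to the range. Normally distributed values pass its cutoff in about 1 in 20 groups, and the rate for untransformed CPM was not tested. Library 1 was the highest for Alb (914 CPM), Afp (6.79 CPM), Cps1 (2.15 CPM), Sftpa1 (98.6 CPM), Tagln (36.2 CPM), Myl9 (1.86 CPM) and Thy1 (34.2 CPM). Library 2 was the highest for Krt7 (979.9 CPM) and Cldn2 (340.1 CPM), and library 3 for Krt6a (311 CPM) and Penk (2.90 CPM). Library 4 was the highest for Cldn6 (30.6 CPM), Eln (1.68 CPM) and Bhmt (0.107 CPM). Library 1 was the lowest for Mvk (8.54 CPM).

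Differences between iHep groups were tested directly. Foxa2 was higher in iHep_Foxa2 than in iHep_Foxa1 and iHep_Foxa3 (log2 fold changes 13.14 and 14.11), Foxa1 was lower than in iHep_Foxa1 (-11.33) and Foxa3 lower than in iHep_Foxa3 (-13.64), as the labels state. Against iHep_Foxa1 and iHep_Foxa3, the log2 fold changes were -1.06 and -1.14 for Golm1, -1.75 and -2.18 for Apoa1, 6.70 and 7.47 for Sftpa1, and -4.18 and -4.33 for Spink1. Of these 4 genes, Golm1 was called among low-Rn7sk libraries alone.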

How the results depend on the processing

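The counts of genes that rose or fell against MEF, consistent or not, stayed within 1.5 times under DESeq2 (its size factors or its own test), no filter, limma on FPKM, the 2 groups alone, the low-Rn7sk set, the most abundant transcript, a 2-fold minimum and each iHep_Foxa2 library left out. Without any 1 library the genes that rose numbered 1157 to 2366 (consistent 1157 to 2321) and those that fell 1748 to 2303 (consistent 1748 to 2283), lowest without MEF replicate 2, which leaves 1 MEF library assumed to vary like the other groups. No call took the opposite sign under any of these alternatives. The genes called did change: of the 5068 calls, 178 were lost with the DESeq2 test, 1070 with limma on FPKM and 1243 with the 2 groups alone. The last 2 settings tested fewer genes. With limma on FPKM the median over all genes was 0.15 on the log2 scale, against 0.06 with edgeR.

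As the replicate numbers are not said to pair libraries, and same-numbered iHep_Foxa2 and MEF libraries did not deviate together (r = -0.052 and -0.09 across genes), the replicate block is an alternative only. It gave 2719 genes that rose and 2606 that fell against MEF, 228 against iHep_Foxa1 and 3592 against iHep_Foxa3. Against iHep_Foxa1, 4 genes were called among low-Rn7sk libraries alone and 301 to 1294 without 1 iHep_Foxa2 library, fewest without library 4; against iHep_Foxa3, 279 (4 libraries against 1) and 3771 to 4347. The causes were not tested.

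Foxa1, uncalled, had log2 fold changes against MEF of -0.070 (DESeq2 size factors), -0.064 (DESeq2), -0.032 (no filter), -0.011 (2 groups), -0.008 (low-Rn7sk), -0.027 (most abundant transcript), -0.635 (replicate block), and -1.121 to 0.61 without any 1 library. Cps1, also uncalled, had 0.069 under the replicate block and -4.184 to 0.132 without any 1 library, above 0 without iHep_Foxa2 replicates 2, 3 and 4.

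Depth limits transcripts at a few counts, such as the liver traces in MEF, and 2 MEF libraries limit every fold.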
